A study of Gallus gallus with 6 samples.

Results

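The comparison was between 4 chickens whose liver RNA held fragments from chromosome W and 2 chickens whose liver RNA held none, out of 6 birds in all. Liver total RNA had been sequenced from 3 birds labelled ALV-J-resistant and from 3 labelled ALV-J-susceptible, each library being a separate bird. ALV-J is the J subgroup of avian leukosis virus, a chicken retrovirus. The labels give no sex, age, breed, laying state, treatment or infection status, so sex was inferred and not labelled. The birds were chosen by their W reads: for each bird the authors' deposited scaled counts were summed over the 9 table rows on chromosome W, and a bird with a sum above 0 was classed as a hen. By this rule resistant 1, resistant 2, susceptible 1 and susceptible 2 were the inferred hens, and resistant 3 and susceptible 3 were the inferred males. Each status therefore held 2 hens and 1 male, and the male of each status was bird number 3, so that bird number and inferred sex cannot be told apart. Values of single birds are given below in the order resistant 1, resistant 2, susceptible 1 and susceptible 2 for the hens, and resistant 3 and susceptible 3 for the males.

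In birds the female carries a Z and a W chromosome and the male carries a pair of Z chromosomes, and the balancing of Z gene expression between the sexes is known to be incomplete. The liver of a laying hen is the source of egg yolk. Oestrogen from the ovary switches on hepatic transcription of the vitellogenins and of a small apolipoprotein of very low density lipoprotein, raises hepatic lipid synthesis, and the products travel through the blood to the growing oocyte. Males carry the same yolk genes but do not normally transcribe them at a high level.

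Between 3831119 and 6623026 fragments per bird were recovered over the table, and 6671 to 9424 of the 14481 protein-coding genes of a bird had a value above 0. The 2 males were the shallowest and the third shallowest libraries, with susceptible 2 between them at 4261599 fragments. Expression is given as FPKM, which scales fragments by transcript length and by library size, as the authors deposited it. A value of 0 is called listed at 0 and is not read as absence. Differences are on the log2(FPKM + 1) scale, hens minus males with status as a covariate, which understates the change of low genes, and a gene is called changed where the limma p-value adjusted over all 9622 tested genes was under 0.05.

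The W rows chose the birds and are described without a test. The sums came to 427, 413, 406 and 145 fragments in the hens, which is 64.5, 71.1, 73.3 and 34.0 per 1000000 fragments. Both males had 0, and a count of 0 allows up to 0.783 such units in resistant 3 and 0.674 in susceptible 3 at 3 fragments, a limit that covers counting error only. Susceptible 2 held the fewest W fragments among the hens and was the hen nearest to the line between the classes.

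Of the 9 W rows, 5 had a value above 0 in at least 1 bird, and the table gives no symbol for them. Only 2 rows were above 0 in every hen. The row at chrW:22485-138725 on the plus strand had 1.498 to 3.04 FPKM in the hens, and the row at chrW:345220-411011 on the minus strand had 6.16, 8.08, 11.3 and 2.03 FPKM. The row at chrW:618629-719218 had 4.87, 3.19 and 4.57 FPKM in the first 3 hens and was listed at 0 in susceptible 2. The row at chrW:156236-223268 was above 0 only in resistant 1, at 6.75 FPKM, and the row at chrW:508990-524936 only in the resistant hens, at 0.932 and 0.155 FPKM. Coordinates are in the galGal4 build.

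**Figure D1:**
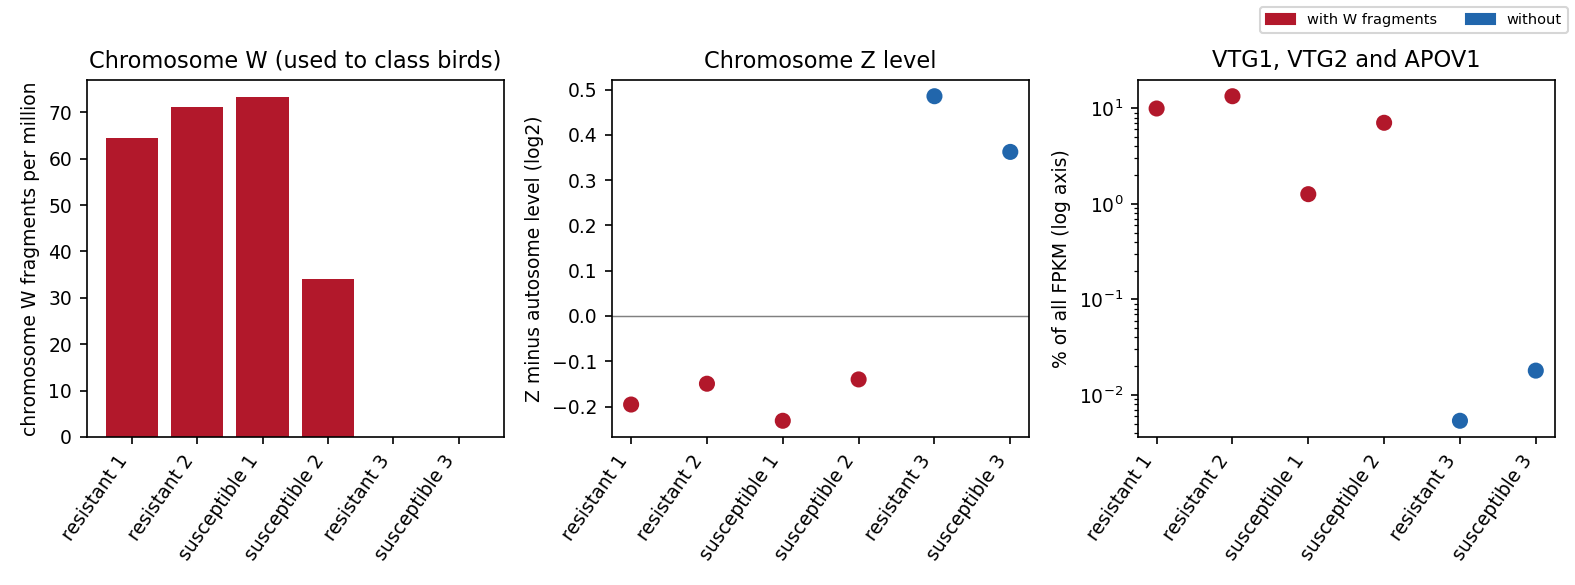
The panels show each bird's chromosome W fragments per 1000000 fragments (bars), Z minus autosome level (points, log2) and the share of all FPKM held by VTG1, VTG2 and APOV1 (points, log axis), coloured by the presence of W fragments. The hens lie between 34.0 and 73.3 W fragments per 1000000 against 0 in the males, below 0 in Z level against 0.36 and 0.49, and at 1.26% to 13.4% yolk share against 0.00537% and 0.0180%.

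The Z chromosome was used nowhere in the choice of birds, and it separated the same birds. The Z level of a bird was taken as the median deviation of its Z genes from their means over the 6 birds, minus the same median over autosomal genes, in log2 units. It was -0.20, -0.15, -0.23 and -0.14 in the hens and 0.49 and 0.36 in the males. Every hen lay below both males, and the gap between the classes was wider than the spread within either. The mean was -0.18 ± 0.042 (SD, n = 4) in hens and 0.42 ± 0.087 (SD, n = 2) in males, a difference of -0.60 that corresponds to a Z level 1.52 times as high in males. An exact 2-sided permutation test gave p = 0.133. This test doubles the p of the smaller tail, and 0.133 is the smallest p that it can give for 4 birds against 2.

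Gene by gene, 354 of the 472 tested Z genes were lower in hens (75%), against 5087 of 9137 autosomal genes (55.7%) and 56.7% of all genes tested. The median difference was -0.71 on Z, -0.14 on the autosomes and -0.17 over all genes. Among single autosomes, chromosome 16 lay lower than Z, at -0.85 over 24 tested genes. All 4 hens lay below both males in 145 Z genes (30.7%), beside 1133 autosomal genes (12.4%) and 13.3% of all genes. All 4 hens lay above both males in 17 Z genes (3.60%), against 6.58% of all genes. After adjustment 1 Z gene was called higher and 1 lower in hens, beside 0.312% and 0.0312% of all genes. The lower Z level in hens was spread over many genes, and calls were few on Z as they were over all genes.

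The lower expression ran along the whole chromosome. In windows of 10 Mb the median difference was negative in all 9, between -0.37 from 60 to 70 Mb and -0.96 from 50 to 60 Mb, with the last window holding only 14 genes. Z genes with a related copy on W were described as a list of their own, since a W copy can add to the dose of a hen. Of its 11 tested members 10 were lower in hens with a median of -0.59, beside 75% and -0.71 over all Z genes. Without overlap were 3 of them, beside 30.7% of all Z genes, and none was called. ATP5A1, a subunit of the mitochondrial ATP synthase, had 124, 119, 113 and 138 FPKM in hens and 168 and 205 FPKM in males. SPINZ, the Z copy of spindlin, had 11.1, 12.2, 6.75 and 17.9 FPKM against 25.7 and 45.2 FPKM. Both genes had no overlap between the classes, and neither difference was called (adjusted p = 0.544 and 0.420, limma).

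**Figure D2:**
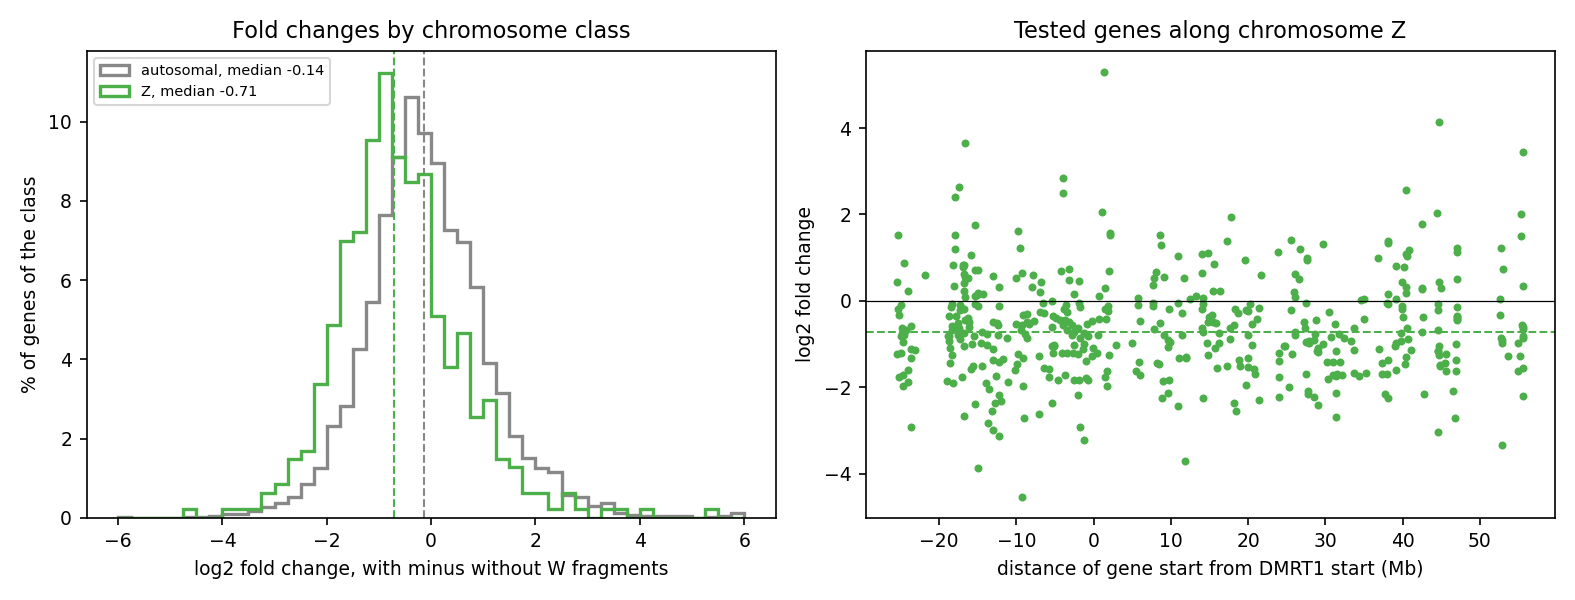
Left, the distribution of log2 fold changes, hens minus males, as the percentage of genes of each chromosome class (lines), with dashed lines at the medians, and right, each tested Z gene (points) by the distance of its start from the DMRT1 start in Mb. The Z distribution is shifted below the autosomal one, with medians of -0.71 and -0.14, and the shift is seen on both sides of DMRT1.

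Named Z genes that were lower in hens included the called gene C6, a component of the terminal complement pathway (chrZ:12824879-12849014). C6 had 15.4, 20.8, 33.0 and 24.8 FPKM in hens and 156 and 225 FPKM in males, without overlap. It was lower by more than the shift of its chromosome, with a log2 difference of -2.99 (SE 0.38, adjusted p = 0.0234, limma). HMGCS1, the cytosolic synthase that supplies the mevalonate pathway, had 358, 421, 999 and 414 FPKM in hens and 2660 and 1933 FPKM in males. HSD17B4, a peroxisomal enzyme of fatty acid and steroid oxidation, had 49.3, 51.2, 59.0 and 67.2 FPKM against 170 and 141 FPKM. Neither of these 2 was called, at adjusted p = 0.144 and 0.193 (limma). Their classes did not overlap, which was a condition of the choice of named Z genes.

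The 1 Z gene called higher in hens was ENSGALG00000018479 (chrZ:27179856-27188771, minus strand), which has no symbol in the table. It had 25.1, 16.1, 72.6 and 71.4 FPKM in hens and was listed at 0 in both males (adjusted p = 0.0222, limma). SLC1A1, a glutamate transporter, had 37.2, 49.5, 59.6 and 41.3 FPKM in hens and 8.93 and 12.0 FPKM in males, and its difference of 2.05 was not called (adjusted p = 0.157, limma). GLDC, the glycine-cleaving decarboxylase, had 260, 203, 188 and 294 FPKM against 87.9 and 73.5 FPKM (adjusted p = 0.173, limma). These 3 genes ran against the direction of most of their chromosome.

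The calls over all genes were few and, in the main setting, nearly all in one direction. With status as a covariate, 33 genes were called (0.343% of those tested), 30 of them higher in hens (0.312%) and 3 lower (0.0312%). Of the 30, 29 were autosomal, 23 had a symbol, 16 were above 0 in every male, 8 were listed at 0 in 1 male and 6 were listed at 0 in both. All 33 genes had no overlap between the classes. At an unadjusted p under 0.05 the directions were more even, with 459 genes higher (4.77%) and 558 lower (5.8%). With listed 0s treated as missing, which tested 6314 genes, 27 genes were called higher and 19 lower. The test had 3 residual degrees of freedom per gene before limma moderated the variances over genes. Leaving out 1 hen left between 0 and 10 genes called higher and 0 lower. All 33 kept their direction, which the lack of overlap fixed in advance whichever bird was left out.

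**Figure D3:**
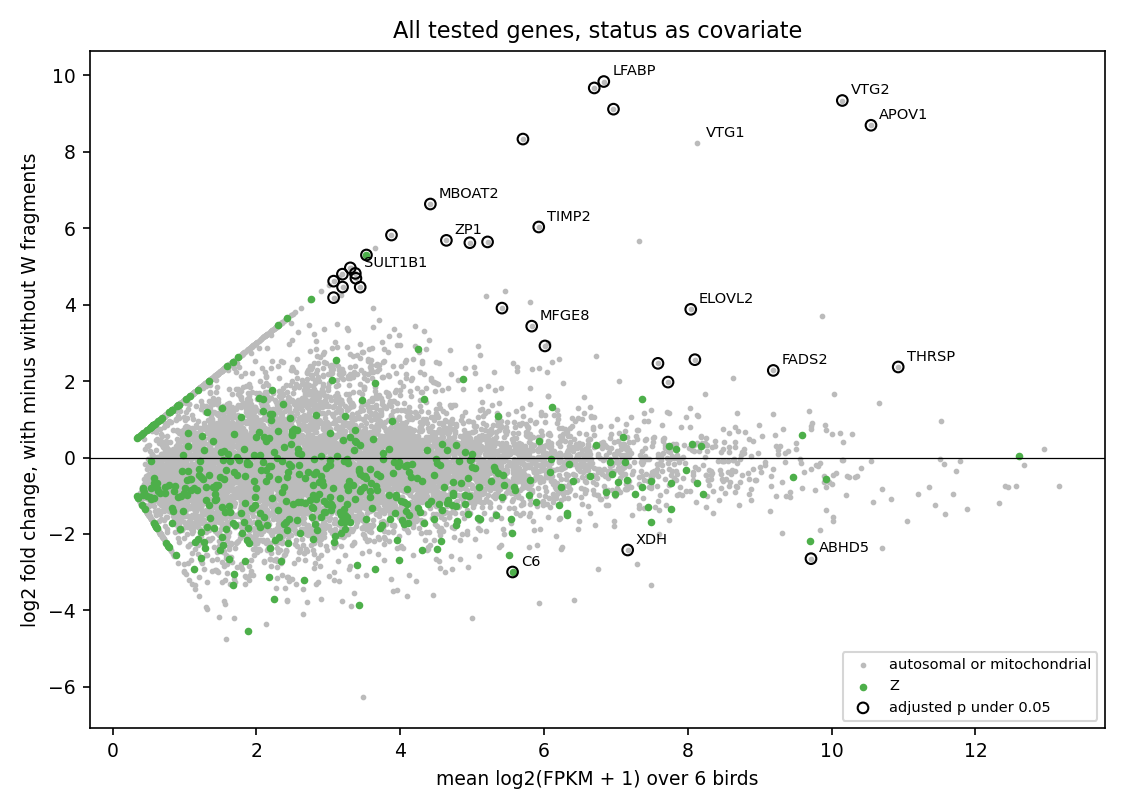
Each tested gene is a point, with its mean log2(FPKM + 1) over the 6 birds on the x axis and its log2 fold change, hens minus males, on the y axis; Z genes are green and the 33 called genes are circled. The yolk genes VTG2 and APOV1 and the fatty acid binding protein LFABP stand at the top with fold changes of 9.34, 8.69 and 9.83, and only C6, XDH and ABHD5 are circled below 0.

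The yolk precursors showed some of the widest differences between the classes. VTG2 encodes the major vitellogenin of the chicken, the precursor that is cleaved into the phosphoproteins and lipovitellins of yolk, and lies at chr8:15416743-15437448 on the plus strand. VTG2 stood at 12622, 18820, 3345 and 11688 FPKM in hens and at 9.65 and 20.6 FPKM in males. Even the lowest hen was far above the higher male, and the log2 difference was 9.34 (SE 0.63, 95% interval 7.88 to 10.79, adjusted p = 0.00105, limma). APOV1 (chr1:82609206-82612227, minus strand), the very low density lipoprotein apoprotein of laying hens that inhibits lipoprotein lipase, stood at 24188, 17081, 2587 and 14416 FPKM in hens and at 12.8 and 51.8 FPKM in males. Its log2 difference was 8.69 (SE 0.88, adjusted p = 0.0118, limma), again without overlap.

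VTG1, the second vitellogenin (chr8:17537065-17580564), followed a less even pattern. It had 6403, 11100.4, 33.3 and 5040.0 FPKM in hens and 3.19 and 8.45 FPKM in males. The value of susceptible 1 was closer to the males than to the other hens, yet still above both males. With this bird the log2 difference of 8.22 (SE 1.85) was not called (adjusted p = 0.176, limma), and without susceptible 1 it was 10.15 and called (adjusted p = 0.0258, limma). With all birds kept and listed 0s treated as missing, which tests fewer genes, it was 8.22 and also called (adjusted p = 0.0448, limma). VTG1 was called in no other setting tried. Its adjusted p was 0.269 with a pseudocount of 0.1, 0.696 without resistant 1 and 0.726 without resistant 2 (limma).

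Together VTG1, VTG2 and APOV1 held 9.94%, 13.4%, 1.26% and 7.05% of all FPKM in the hens and 0.00537% and 0.0180% in the males. In FPKM a large share taken by a few genes lowers the share left for all others, and the yolk share was 7.05% or more in 3 of the 4 hens. Rescaling by median ratios moved the median of all genes from -0.17 to 0.0088 and kept all 33 calls. The part of the yolk share in that median was not tested. The totals behind these shares include ALB, albumin, which was listed at 0 in resistant 2 and susceptible 3. VTG3, the remaining yolk precursor of the list, had no row under its symbol and was not analysed here.

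ZP1, an egg coat protein that the liver of laying hens makes under oestrogen and releases into blood, had 121, 136, 43.3 and 99.0 FPKM in hens and 0.799 and 0.822 FPKM in males. Its difference was 5.68 (SE 0.52, adjusted p = 0.00777, limma). An unnamed gene at chr8:15439375-15487512, which starts 1926 bases after the end of VTG2 on the same strand, had 1422, 2243, 220 and 1573 FPKM against 0.123 and 2.07 FPKM, and it was called with a difference of 9.11 (adjusted p = 0.00908, limma). Whether reads running on from VTG2 add to that row was not tested. ESR1, the oestrogen receptor that drives yolk gene transcription, had 18.2, 24.2, 25.3 and 27.4 FPKM in hens, was listed at 0 in resistant 3 and had 17.3 FPKM in susceptible 3. All hens were above both males, but the difference was not called (adjusted p = 0.375, limma). Of the 11 tested genes for oestrogen receptors and their partners 5 were higher, 6 were lower and none was called, with a median of -0.23 beside -0.17 over all genes.

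The smallest adjusted p of all belonged to ENSGALG00000010018 (chr1:35479654-35487259), a gene with no symbol. It had 1155, 1359, 460 and 1216 FPKM in hens and 0.226 and 0.161 FPKM in males, a log2 difference of 9.67 (SE 0.45, adjusted p = 0.000186, limma). A second unnamed gene, at chr1:50658261-50664465, had 578, 433, 140 and 462 FPKM against 0.133 and 0.0945 FPKM and a difference of 8.33. Both were at 140 FPKM or more in every hen and under 1 FPKM in both males.

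In the list of lipogenic genes 15 of 20 tested rows were higher in hens, with a median of 0.79, and 5 were called higher beside 0.312% of all genes; 10 were higher without overlap and 2 lower, beside 6.58% and 13.3% of all genes. The called members were ELOVL2, THRSP, AGPAT2, FADS1 and FADS2. The list was drawn up with earlier results of these data known.

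ELOVL2, which elongates long polyunsaturated fatty acids, had 670, 845, 395 and 768 FPKM in hens and 30.5 and 60.3 FPKM in males, a difference of 3.88 (SE 0.43, adjusted p = 0.0168, limma). FADS1 and FADS2, the desaturases that act with it in the same pathway, lie side by side on chromosome 5. FADS1 (chr5:16078379-16087971) had 344, 318, 341 and 351 FPKM against 45.7 and 80.1 FPKM, a difference of 2.46 (SE 0.32, adjusted p = 0.0236, limma). FADS2 (chr5:16094681-16111781) had 780, 960, 1295 and 977 FPKM against 146 and 280 FPKM, a difference of 2.28 (SE 0.30, adjusted p = 0.0252, limma). The desaturases were as high in susceptible 1 as in the other hens, unlike the yolk genes, which were lowest there. The next gene on that chromosome among those called, RAB3IL1 (chr5:16120365-16133685), an exchange factor for Rab GTPases, had 16.2, 22.7, 28.5 and 18.9 FPKM in hens, was listed at 0 in resistant 3 and had 0.488 FPKM in susceptible 3 (adjusted p = 0.0488, limma).

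THRSP, a nuclear protein that promotes lipogenesis, had 3602, 3024, 3382 and 3465 FPKM in hens and 791 and 535 FPKM in males, a difference of 2.37 (SE 0.29, adjusted p = 0.0222, limma). A second row carries the same symbol at a neighbouring position, and it had 54.2, 18.5, 21.4 and 6.27 FPKM against 32.4 and 68.8 FPKM and was not called. Whether the 2 rows share reads was not tested, so both are uncertain. AGPAT2, an acyltransferase of triglyceride and phospholipid synthesis, had 196, 127, 51.4 and 92.4 FPKM against 5.82 and 6.22 FPKM, a difference of 3.91 (SE 0.48, adjusted p = 0.0222, limma). MBOAT2, an acyltransferase that remodels phospholipids, had 122, 326, 21.2 and 107 FPKM in hens and was listed at 0 in both males. The first THRSP row, AGPAT2 and MBOAT2 were higher in every hen than in either male, and the second THRSP row overlapped.

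None of the enzymes that build saturated fatty acids and desaturate them to oleate was called. SCD, the stearoyl desaturase, had 1259, 1478, 2882 and 1050 FPKM in hens against 475 and 500 FPKM in males (difference 1.66, adjusted p = 0.220, limma). FASN, fatty acid synthase, had 624, 595, 1855 and 481 FPKM against 431 and 468 FPKM (difference 0.76, adjusted p = 0.610, limma). ACACA, acetyl-CoA carboxylase, had 155, 147, 133 and 157 FPKM against 117 and 136 FPKM. SCD and FASN were above both males in every hen, whereas ACACA overlapped. The phosphatidate phosphatases LPIN1 and LPIN2 were the list members lower in every hen than in either male. LPIN2 had 99.3, 48.9, 60.0 and 157 FPKM in hens and 1349 and 515 FPKM in males (difference -3.32, adjusted p = 0.0808, limma).

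Carriers and regulators of lipid transport gave a mixed picture. LFABP, a liver fatty acid binding protein, had 1602, 1039, 379 and 2351 FPKM in hens, was listed at 0 in resistant 3 and had 0.466 FPKM in susceptible 3 (difference 9.83, SE 0.68, adjusted p = 0.00105, limma). ANGPTL4, a secreted inhibitor of lipoprotein lipase, had 45.1, 23.1, 56.8 and 13.6 FPKM in hens and was listed at 0 in both males (adjusted p = 0.0485, limma). The list of lipoprotein assembly and uptake genes had 5 of 14 tested members higher and 9 lower, with a median of -0.48. Among them 1 was called higher, beside 0.312% of all genes. Without overlap 2 were higher and 2 lower, beside 6.58% and 13.3% of all genes. APOB, the structural protein of very low density lipoprotein, had 5125, 0, 2441 and 5359 FPKM in hens and 615 and 816 FPKM in males. Its fitted difference of -0.48 includes the listed 0 of resistant 2, and the other 3 hens were above both males.

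Sterol genes leaned upwards without a call. Of 19 tested genes of cholesterol synthesis 16 were higher in hens and 3 lower, beside 56.7% lower of all genes, with a median of 0.61. PMVK, counted as higher, was above 0 in resistant 1 alone, and EBP, counted as lower, in resistant 3 alone. At an unadjusted p under 0.05 (limma) 5 were higher, beside 4.77% of all genes, and 1 lower, beside 5.8%. None was called after adjustment. Without overlap 1 was higher and 1 lower, beside 6.58% and 13.3% of all genes. The median deviation of the list was -0.061, -0.44, 0.86 and 0.38 in hens and -1.09 and 0.035 in males. Both resistant hens thus lay below susceptible 3. SQLE, squalene epoxidase, had 96.2, 71.6, 160 and 180 FPKM in hens and 26.6 and 86.0 FPKM in males, so the classes overlapped. HMGCS1 on chromosome Z was the member with the lowest difference, -2.18. CYP7A1, the rate-limiting enzyme of bile acid synthesis, had 163, 167, 66.8 and 174 FPKM in hens and 18.5 and 24.6 FPKM in males. Its difference of 2.59 had an adjusted p of 0.105 (limma) although the classes did not overlap. Genes of fatty acid oxidation were split, with 10 of 17 higher, a median of 0.19 and none called.

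**Figure D4:**
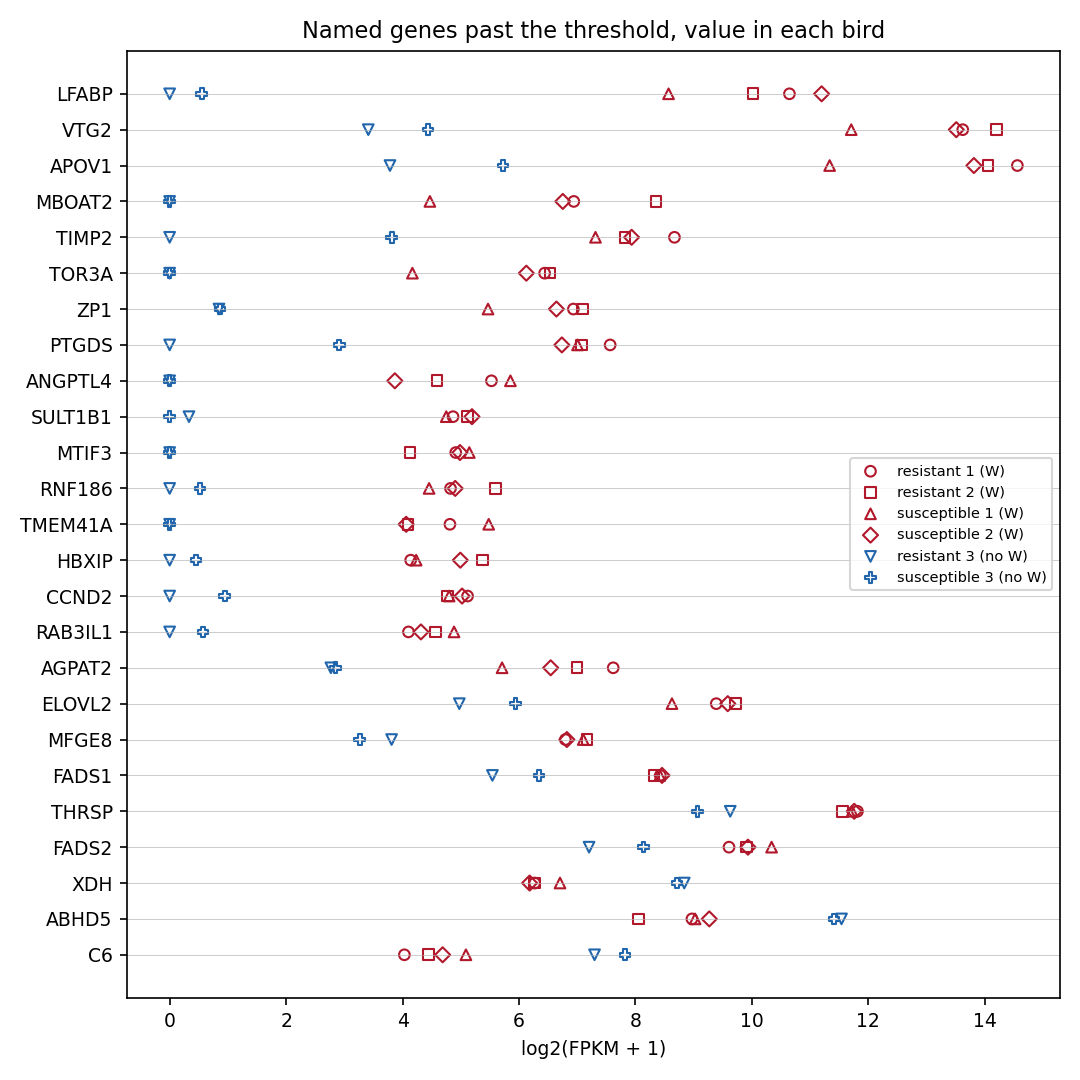
The value of each bird is plotted as log2(FPKM + 1) for the called genes with a symbol that are reported here, with 1 marker shape per bird and 1 colour per class. In each row the 4 hens lie to one side of the 2 males; the males lie to the right only for C6, XDH and ABHD5.

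The other named genes called higher in hens were of varied function. MFGE8, a secreted glycoprotein that binds phosphatidylserine, had 110, 143, 137 and 112 FPKM against 13.1 and 8.61 FPKM (difference 3.44, SE 0.37, adjusted p = 0.0149, limma). TIMP2, an inhibitor of matrix metalloproteinases, had 407, 226, 158 and 244 FPKM in hens, was listed at 0 in resistant 3 and had 13.1 FPKM in susceptible 3. PTGDS, a prostaglandin D synthase of the lipocalin family, had 189, 133, 128 and 106 FPKM, was listed at 0 in resistant 3 and had 6.53 FPKM in susceptible 3. These 3 were above 100 FPKM in every hen.

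SULT1B1, a cytosolic sulfotransferase, had 28.2, 33.6, 25.9 and 35.6 FPKM in hens, 0.258 FPKM in resistant 3 and a listed 0 in susceptible 3 (difference 4.82, adjusted p = 0.0222, limma). CCND2, a cyclin of the G1 phase, had 33.7, 26.4, 26.9 and 31.5 FPKM, a listed 0 in resistant 3 and 0.928 FPKM in susceptible 3 (difference 4.46, adjusted p = 0.0252, limma). Both were even across the hens. TOR3A, a member of the torsin family of the endoplasmic reticulum, had 85.9, 91.8, 17.0 and 68.9 FPKM in hens and was listed at 0 in both males. MTIF3, a mitochondrial translation initiation factor, and TMEM41A, a membrane protein, were also listed at 0 in both males, with 16.5 to 34.4 and 15.7 to 43.6 FPKM in hens. RNF186 and HBXIP were listed at 0 in resistant 3 and stayed under 1 FPKM in susceptible 3. For genes listed at 0 in males the size of the fitted difference depends on the pseudocount of 1.

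The 2 autosomal genes called lower in hens were XDH and ABHD5. XDH, xanthine dehydrogenase, which forms uric acid, had 76.2, 76.2, 103 and 71.7 FPKM in hens and 457 and 419 FPKM in males, a difference of -2.42 (SE 0.32, adjusted p = 0.0252, limma). The gene named ABHD5 in the table had 501, 265, 520 and 616 FPKM against 2979 and 2725 FPKM, a difference of -2.65 (SE 0.36, adjusted p = 0.0273, limma). The RefSeq gene table (GRCg7b assembly) lists ABHD5 as a synonym under the symbol ABHD4, so the name is uncertain. In both genes the 2 males were close to each other and far above every hen.

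Further genes, named because they stood higher in both males than in any hen, did not pass the threshold. COQ10B, a coenzyme Q binding protein, had 94.7, 29.4, 16.0 and 33.6 FPKM in hens and 1125 and 201 FPKM in males (adjusted p = 0.0523, limma). SIK1, a salt-inducible kinase, had 7.35, 3.44, 8.32 and 5.80 FPKM against 88.1 and 66.5 FPKM (adjusted p = 0.0585, limma). NFKBIA, the inhibitor of NF-kappa-B, had 17.3, 8.40, 3.53 and 6.77 FPKM against 129 and 51.0 FPKM (adjusted p = 0.0683, limma). In SIK1 even the lower male was far above the highest hen.

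The row named PEPCK, phosphoenolpyruvate carboxykinase, was listed at 0 in both resistant hens, had 15.0 and 1.97 FPKM in the susceptible hens and 499 and 80.6 FPKM in males (adjusted p = 0.124, limma). GPT2, an alanine aminotransferase, had 63.4, 46.8, 169 and 87.8 FPKM against 707 and 448 FPKM (adjusted p = 0.0909, limma). Feeding state at sampling is not in the labels, and its part in these values was not tested. The mitotic enzyme UBE2C was listed at 0 in all 4 hens and had 23.3 and 28.2 FPKM in males. The list of replication and cell division genes had 11 of 19 members higher, a median of 0.18 and none called. Without overlap 0 were higher and 2 lower, beside 6.58% and 13.3% of all genes. BIRC5 and TYMS, counted as higher, were above 0 in only 1 bird each, so the count of directions is weak.

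Abundant plasma proteins did not follow one direction. FGA, the fibrinogen alpha chain, had 1448, 1344, 1620 and 1395 FPKM in hens and 4614 and 4528 FPKM in males, a difference of -1.66 (SE 0.27, adjusted p = 0.0641, limma). FGB had 2133, 1699, 2980 and 2014 FPKM against 5606 and 6489 FPKM, and FGG had 1688, 2008, 2602 and 2082 FPKM against 5374 and 4534 FPKM. The 3 fibrinogen chains thus showed the same separation, though none was called. AHSG, fetuin A, which binds calcium in plasma, had 2212, 2465, 2016 and 2359 FPKM in hens and 628 and 1107 FPKM in males (difference 1.44, adjusted p = 0.173, limma). GC, the vitamin D binding protein, had 3587, 3793, 3274 and 4048 FPKM against 1714 and 2099 FPKM (difference 0.95, adjusted p = 0.292, limma). In the list of calcium and vitamin D genes 7 of 8 tested members were higher, with a median of 0.75 and none called. Among the 6 tested plasma carriers that also reach the egg, 2 were higher and 4 lower, with a median of -0.14 and none called, and TF, transferrin, had 3364, 3568, 3581 and 3317 FPKM against 3122 and 4404 FPKM.

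**Figure D5:**
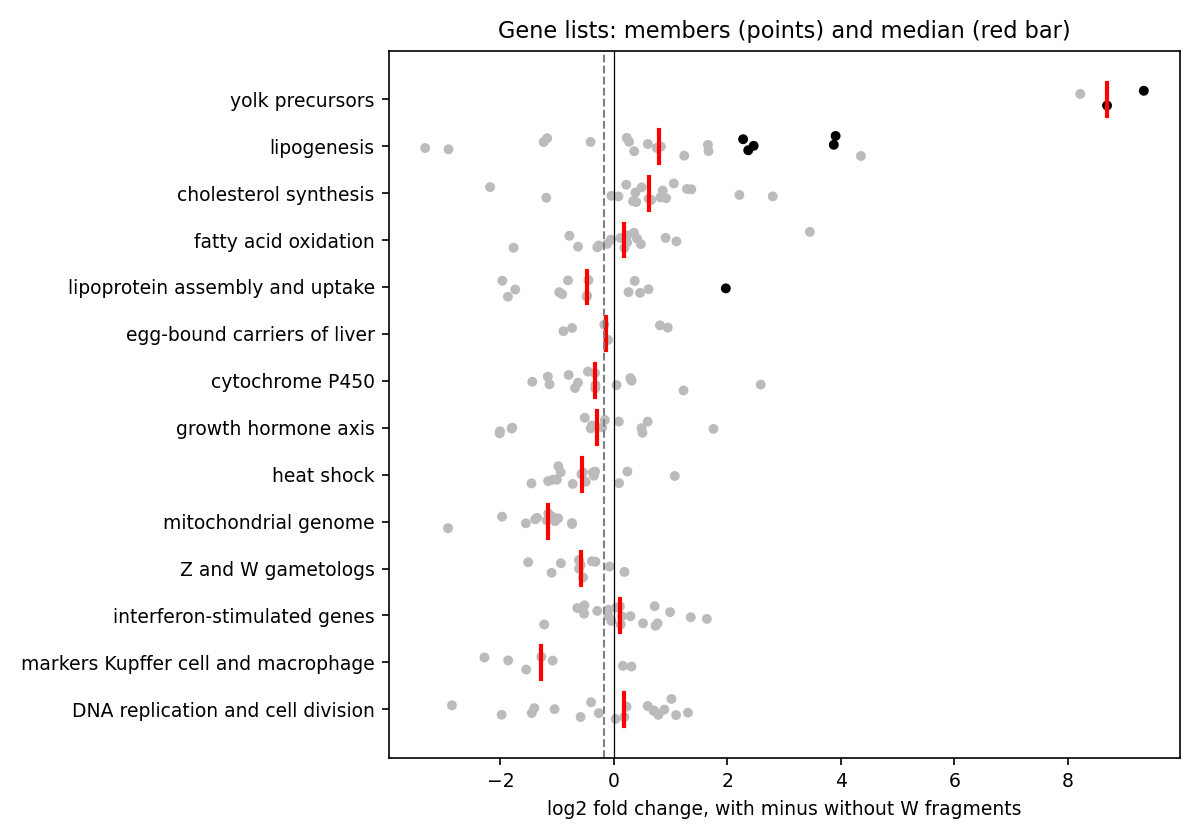
Each row is a gene list, each point a tested member placed by its log2 fold change, hens minus males (black where called, grey where not), the red bar the median of the list and the dashed line the median of all tested genes, -0.17. Yolk precursors stand apart at a median of 8.69, lipogenesis lies at 0.79 and cholesterol synthesis at 0.61, and mitochondrial genome genes lie at -1.17.

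Lists for drug and hormone handling held no call. Of the cytochrome P450 genes 5 of 15 were higher, with a median of -0.33, of steroid metabolism 3 of 10, also with a median of -0.33, and of the growth hormone axis 5 of 14, with a median of -0.29. CISH, a feedback inhibitor of cytokine and growth hormone signalling, had 16.9, 21.6, 8.95 and 32.0 FPKM in hens and 99.8 and 57.3 FPKM in males (adjusted p = 0.272, limma). POR, which passes electrons to the P450 enzymes, had 59.5, 42.8, 55.5 and 52.9 FPKM against 116 and 121 FPKM (adjusted p = 0.3004, limma). Both of these had no overlap. Secretory pathway genes were 16 of 37 higher with a median of -0.10, and interferon-stimulated genes 12 of 21 higher with a median of 0.11, none called in either. Heat shock genes were 13 of 16 lower beside 56.7% of all genes, with a median of -0.56, 5 of them without overlap beside 13.3% of all genes, and none called.

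The mitochondrially encoded genes were lower in hens as a whole but not evenly. Of the 12 on the list all were lower, with a median of -1.17, 5 without overlap beside 13.3% of all genes, and none called. Their summed FPKM was 18001, 15905, 39078 and 36751 in hens and 39892 and 65762 in males. In these sums the resistant hens lay well below the other birds, and the susceptible hens lay just under resistant 3. By the median deviation of the list susceptible 1, at 0.41, lay above resistant 3, at 0.34.

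Markers of several cell types were mostly lower in hens, hepatocytes included, with 6 of 8 lower and a median of -0.85. Among 7 tested Kupffer cell and macrophage markers 5 were lower in hens, 4 of them without overlap beside 13.3% of all genes, with a median of -1.28 and none called. Their summed level was 300.5, 284, 225 and 102 FPKM in hens and 485 and 454 FPKM in males. MARCO, a scavenger receptor of macrophages, had 24.98, 31.4, 47.2 and 14.5 FPKM against 113 and 91.0 FPKM. In bulk tissue fewer cells of a type and less RNA per cell cannot be told apart. Endothelial markers were 8 of 10 lower, T cell markers 5 of 5 and stellate cell markers 6 of 7, beside 56.7% of all genes. None of these had an unadjusted p under 0.05 (limma). The summed level of the endothelial markers was 112, 185, 166 and 91.8 FPKM in hens and 303 and 174 FPKM in males. Bile duct markers were 3 of 5 higher, the 2 tested B and plasma cell markers were higher, and the 1 tested red cell marker was lower. Of T cell markers CD5 and LCK were listed at 0 in every bird. The part of these cells in the other differences was not tested.

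The hepatocyte markers were abundant in both classes, with 2 of 8 higher and a median of -0.85. The higher ones were AHSG and ALB, and the 3 fibrinogen chains were among the lower ones. ALB, albumin, the defining transcript of liver, had 24858 to 30679 FPKM in 4 birds and was listed at 0 in resistant 2 and susceptible 3. Its place among the higher ones rests on these listed 0s, so no difference was read from it. All 6 testis markers in the table were listed at 0 in every bird, and so were ZP3, FOXL2 and OVALY of the ovary and oviduct list. The other 2 members of that list in the table were above 0 in few birds: PGR had 10.7 FPKM in susceptible 1 alone, and STAR had 1.901 FPKM in resistant 2 and 5.004 FPKM in susceptible 3. Of the 13 genes of sex determination 8 were listed at 0 in every bird, among them DMRT1, the Z-linked gene of the male pathway, and CYP19A1, the aromatase that makes oestrogen. The 4 tested members were 2 higher and 2 lower, with none called. NR0B1 was the 1 member without overlap. It had 27.2, 9.85, 103 and 46.9 FPKM in hens and 249 and 118 FPKM in males (difference -2.30, adjusted p = 0.344, limma).

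The difference between hens and males was also tested for a dependence on ALV-J status. With 1 male per status, the interaction was called in 0 of 9622 genes (0%) by limma, with 1065 genes at an unadjusted p under 0.05 and a lowest adjusted p of 0.113. Such a test does not show that the sexes differed alike in both groups.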

How the data were processed

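Liver total RNA of 6 chickens had been sequenced, with status and bird number read from each title. The authors deposited FPKM values for each gene and bird. Per the submitters' processing notes the tools were cutadapt 1.9.3, HISAT2 2.0.4, Cufflinks and Cuffdiff with the galGal4 build, with no roles or order stated. A second set of columns, named counts per the file headers, holds a normalized signal that was not whole numbers; it is called scaled counts here. Between 99.3% and 99.6% of these values per bird were whole multiples of a step within 0.02 steps, and the step was read as 1 fragment. Fragments per bird are the sum over protein-coding genes divided by the step. There were 0 columns of other samples. Coordinates count from 1.

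Birds were classed by the W sums, and the 9 W rows were left out of all tests. log2(FPKM + 1) was tested with limma 3.58.1 in R 4.3.3 (lmFit, eBayes with a trend), hens minus males, with status as a covariate, over the 9622 genes whose mean reached 0.5 FPKM. Tests were 2-sided, with Benjamini-Hochberg adjustment at 0.05. The Z level was compared with an exact permutation test in scipy 1.17.1. P-values rest on the spread between these 6 birds, and limma also moderates the variance of each gene by that of all genes. With 1 male per status, the spread between males of the same status was not measured. Named genes were the yolk genes, ESR1 and genes without overlap at a mean of at least 5 FPKM in the higher class. The latter were taken by size of change among called genes, otherwise by smallest p, by chromosome class and listed 0s. Also named were the 3 list members of smallest p in each list. That rule was not applied to the lists of calcium and vitamin D, sex determination and cell markers. All called genes, and further list members given for completeness, were named after their values were seen. 1 called gene is not reported here. The members and lists were chosen with earlier results of these data known. Lists were described by counts and medians with no test. No bird duplicated another of its status, since the chi-square between any such pair was 144 or more per degree of freedom. The fit was tested on simulated data. Alternatives were another pseudocount, other filters, other scalings, no covariate, array weights, listed 0s as missing, the scaled counts, each status alone and leaving out each bird. Plots used matplotlib 3.10.9 and Python 3.11.15.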

Additional observations from a re-analysis of the deposited data

Results flagged for a closer look

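Values below stand apart from the other hens by the gap to the nearest hen relative to the range of the 4 hens. By chance about 1 in 20 groups would do so. 8 of the 102 named genes examined did, and 352 of 5754 genes above 0 did (6.12%), so their number is near the background. The named genes include some with listed 0s in hens, RHOG and PSTPIP2 among the 8, so the compared sets are not alike.

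Susceptible 1 was the bird that stood apart in 5 of the 8 genes. It was low in VTG1 at 33.3 FPKM, where the other hens had 5040.0 to 11100.4 FPKM. It was low in CYP7A1 at 66.8 FPKM beside 163 to 174 FPKM, and in ENSGALG00000010018 at 460 FPKM beside 1155 to 1359 FPKM. It was high in XDH at 103 FPKM and in HMGCS1 at 999 FPKM, though still below both males.

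Resistant 2 stood apart in the other 3. It had 0.284 FPKM of RHOG, which was listed at 0 in the other hens, and 0.468 FPKM of PSTPIP2. Its gadd45 value was 7.55 FPKM beside 21.98 to 26.7 FPKM in the other hens.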

How the results depend on the processing

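With 2 males and 3 residual degrees of freedom the number of calls moved more than the values did. All 33 called genes kept their direction in each setting in which they were tested. Because these genes had no overlap between the classes, leaving out a bird or taking 1 status alone could not change it. The main counts were 30 higher and 3 lower. The higher count was 19 with a pseudocount of 0.1, 27 with listed 0s as missing and 24 on scaled counts. The lower count was 7 with a filter of 5 FPKM, 8 after quantile normalization, 6 without the covariate, 19 of 6314 genes with listed 0s as missing and 8 on scaled counts. Resistant birds alone gave 0 and 0, and susceptible birds alone 1 higher and 299 lower. Leaving out 1 bird left 2 residual degrees of freedom and 0 to 10 higher and 0 to 0 lower, with 10 without susceptible 1, 1 without susceptible 2 and 0 without any of the other 4. Where a male was left out or 1 status was taken alone, the lone male was assumed to vary as the other birds do. The genes called in susceptible birds alone included none of the genes called in the main setting. Counts from 1 status rest on 1 male and are not read as differences between the classes. The interaction was called in 171 genes with a pseudocount of 0.1 and in 0 to 787 genes when a hen was left out (785 without resistant 1, 787 without resistant 2). The Z median was -0.91 with a pseudocount of 0.1 and -0.91 on scaled counts, and the autosomal median 0.036 after median ratio rescaling, so small autosomal differences change sign with the scaling. The Z median minus the autosomal median, -0.57, was -0.76 with a pseudocount of 0.1, -0.53 with 5 FPKM, -0.48 with listed 0s as missing, -0.76 on scaled counts, -0.63 in resistant and -0.63 in susceptible birds alone, and -0.63 to -0.55 without 1 bird. The Z level difference, -0.60, was in the same order -0.72, -0.55, -0.48 and -0.72, then -0.55 in susceptible birds alone and -0.67 to -0.54 without 1 bird, and in each setting the hens lay below the males. The yolk median, 8.69, was 10.53 in resistant and 6.85 in susceptible birds alone and 6.85 to 10.53 without 1 bird. The lipoprotein median was -0.85 in resistant birds alone and -0.85 to -0.53 without 1 bird. That of fatty acid oxidation was 0.40 after median ratio rescaling and 0.39 after quantile normalization. The interferon-stimulated median, 0.11, turned to -0.66 in susceptible birds alone, -0.01 without resistant 2 and -0.66 without resistant 3, with a range of -0.66 to 0.75 without 1 bird. The cause of these shifts was not tested. No paired analysis was possible because the 2 males are both number 3, so a block for bird number coincides with the comparison. A count model on recovered fragments was not run. The males had 3831119 and 4449316 fragments, and the part of depth in their listed 0s was not tested.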

Other observations

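Susceptible 1 differed from the other hens in the genes called higher in hens. It was the lowest of the 4 hens in 16 of the 30 (53.3%), against 19.7% of 7718 genes without ties, and its median log2 difference from the other hens was -0.63 over the 30 genes and 0.20 over all genes. Its W fragments, 73.3 per 1000000 fragments, were the highest of the 4 hens, and its Z level, -0.23, the lowest. VTG2, APOV1, VTG1, ZP1, LFABP, ELOVL2, AGPAT2, MBOAT2 and TOR3A were lowest in susceptible 1 among the hens, while FADS2 was highest there at 1295 FPKM. These values were picked out after they were seen.

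Of the 17 Z genes higher in every hen than in either male, 3 lie between 1 and 2.2 Mb after the start of DMRT1, namely SLC1A1, ENSGALG00000018479 and GLDC. The 14 tested genes of that stretch had 6 higher and 8 lower, with a median of -0.15 beside -0.71 over all Z genes. The stretch was chosen after the values were seen, and no test was made of it.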
